A study of Mus musculus with 4 samples.

Results

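The nuclear subunits of respiratory chain complexes II, III and IV and of ATP synthase (complex V) were described across the epithelial cell types of mouse small intestine and across genotypes. They were taken as the genes with the symbol Sdha, Sdhb, Sdhc, Sdhd or Cyc1, those with a symbol starting Uqcr or Atp5, and those starting Cox with a digit from 4 to 8 and then a, b or c, with pseudogenes left out. These were 46 of 32285 genes counted: 4 of complex II, 9 of complex III, 16 of complex IV and 17 of complex V. The rule uses gene symbols. The rule leaves out the complex IV subunits Cox4i1, Cox4i2 and Ndufa4 and takes in Cox7a2l, a relative of Cox7a2 known for joining complexes III and IV.

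Complex II passes electrons from succinate to ubiquinone, complex III passes them on to cytochrome c, complex IV passes them to oxygen, and complex V makes ATP from the proton gradient that results. Complex II is built from nuclear genes alone, whereas complexes III, IV and V also hold subunits encoded by mitochondrial DNA (mtDNA), so their assembly depends on translation in both compartments. In the intestine, stem and dividing cells sit in the crypts, absorptive enterocytes mature as they move up the villi, and the secretory lineages are goblet, Paneth, tuft and enteroendocrine cells. Several subunits have tissue-restricted isoforms: Cox6a2, Cox7a1 and Cox8b are known from heart and skeletal muscle, and Cox6b2 from testis.

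The study profiled single cells by droplet sequencing of transcript 3' ends, counting each captured molecule once by its unique molecular identifier (UMI). All mice were 25-week-old, and the cells were small intestinal epithelium, sorted by flow cytometry after staining with DAPI and antibodies to CD326 (EpCAM), TER-119, CD31 and CD45. The libraries wild type 1 and wild type 2 came from wild type mice; mutant 1 and mutant 2 came from TrnA point mutant mice, which carry G5081A in the mitochondrial gene for alanine tRNA at loads of 77% and 81%. Wild type 1 and mutant 1, with no sex in the titles, form set A, and wild type 2 and mutant 2, both titled male, form set B. The sets also differ in the Cell Ranger version (7.0.0 and 7.1.0), so sex statement, software and any other difference between sets cannot be told apart. Acute colitis appears in the title of the series but as a treatment in none of the sample labels. The labels do not say that the libraries are separate animals, and a p-value here therefore weighs a difference against the spread of 4 samples, which may be technical.

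Of 5974 to 13805 barcodes per library, 4254 to 9949 were kept, and 28692 epithelial cells carried 85596990 to 97076187 UMIs per library. Median UMIs per epithelial cell were 20578, 9424, 10721 and 10440 in set A (wild type 1, then mutant 1) and set B (wild type 2, then mutant 2), the order used for every set of 4 values here. Pairs of libraries shared 26 to 60 barcodes. In these cells Epcam read 2322 to 3379 CPM (UMI counts scaled to the same total in every library and class). The summed lists for fibroblasts, endothelium, myeloid cells and B cells each stayed below 5.11 CPM. Erythroid genes reached 16.8 CPM and muscle genes 32.1 CPM. For these lists the label held against markers. A cluster named as lymphocytes, with 37, 62, 13 and 31 cells, had been left out before the sums were taken. The lymphocyte list, at or below 5.11 CPM, therefore cannot test the label. Clusters were named "X-like" from fixed markers, with all respiratory chain genes kept out of the clustering; the suffix is left out here. Crypt cells (1195 to 3460 per library) are the stem and cycling clusters together, Paneth cells numbered 39 to 292, with 39 in wild type 1, and tuft cells 38 to 117. Most cycling cells of set A and set B fell in different clusters (411, 1463, 53 and 57 cells in one, 5, 50, 736 and 640 in the other).

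RefSeq promoter entries (GRCm38.p6) matched 35 of the 46 members; Cox8c, Cox6a2, Atp5a1, Atp5mpl, Sdhc, Cox6c, Cyc1, Uqcrq, Uqcrc2, Uqcrb and Atp5f1 had no match. The 250 bases before the start are shown for the isoform pairs Cox7a1 and Cox7a2, and Cox6b1 and Cox6b2, whose levels part along the crypt to villus axis, and for Cox6a1, the widely expressed partner of Cox6a2. They lie at chr7:30183921-30184170, plus strand (Cox7a1), chr9:79759854-79760103, minus strand (Cox7a2), chr7:30626115-30626364, minus strand (Cox6b1), chr7:4753095-4753344, minus strand (Cox6b2) and chr5:115348959-115349208, minus strand (Cox6a1). Capitals mark the NRF1 motif (the first capital run in Cox6a1), CCGGAAG (an ETS family motif) and CCAAT, searched on both strands.
Cox7a1: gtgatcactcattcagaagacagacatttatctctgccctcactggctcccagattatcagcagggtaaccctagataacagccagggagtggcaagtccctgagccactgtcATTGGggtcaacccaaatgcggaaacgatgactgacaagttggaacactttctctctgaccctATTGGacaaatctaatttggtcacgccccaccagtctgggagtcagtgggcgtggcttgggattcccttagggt
Cox7a2: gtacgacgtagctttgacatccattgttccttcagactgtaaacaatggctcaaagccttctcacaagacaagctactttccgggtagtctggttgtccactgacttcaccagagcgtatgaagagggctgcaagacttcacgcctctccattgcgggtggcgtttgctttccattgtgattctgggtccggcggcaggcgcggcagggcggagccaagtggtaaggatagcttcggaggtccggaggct
Cox6b1: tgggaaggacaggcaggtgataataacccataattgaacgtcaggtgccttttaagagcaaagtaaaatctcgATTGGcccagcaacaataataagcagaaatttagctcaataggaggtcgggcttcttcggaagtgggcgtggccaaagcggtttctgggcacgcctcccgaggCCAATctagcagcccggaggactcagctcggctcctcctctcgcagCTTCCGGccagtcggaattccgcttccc
Cox6b2: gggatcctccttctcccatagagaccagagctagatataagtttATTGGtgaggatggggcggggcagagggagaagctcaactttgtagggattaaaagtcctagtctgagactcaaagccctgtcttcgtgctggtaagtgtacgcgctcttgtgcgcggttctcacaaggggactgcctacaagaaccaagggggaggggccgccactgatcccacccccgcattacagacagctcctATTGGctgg
Cox6a1: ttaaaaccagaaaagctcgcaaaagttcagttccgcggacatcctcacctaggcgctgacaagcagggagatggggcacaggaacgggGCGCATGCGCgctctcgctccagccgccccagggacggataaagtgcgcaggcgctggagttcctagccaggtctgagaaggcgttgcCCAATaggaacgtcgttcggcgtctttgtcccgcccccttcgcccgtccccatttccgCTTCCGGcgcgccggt
The restricted isoforms held fewer CpG pairs than their partners in these 250 bases: 4 in Cox7a1 against 14 in Cox7a2, and 8 in Cox6b2 against 14 in Cox6b1. Cox6a1 held 26 and is the one shown with the NRF1 letters.

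Over the full window of 250 bases before to 50 after the start, the NRF1 motif was in 4 of 35 member promoters (Atp5g2, Atp5k, Cox6a1 and Uqcrc1; 11.4%) and in 1.07% of 27025 promoters of all genes. CCGGAAG was in 13 of 35 (37.1%) against 9.93%, CCAAT in 20 of 35 (57.1%) against 41.1%, and the ERR motif AAGGTCA in 5 of 35 (14.3%) against 5.38%. The HNF4 letters CAAAGTCCA and the MEF2 motif were in 0 of 35, against 0.555% and 0.181% of all promoters. The median number of CpG pairs was 19 in members and 7 in all genes. These are letter matches, given as a description.

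Members together took the largest share of the transcript pool in cells between the crypt and the mature villus, and the smallest in Paneth cells and in clusters of low UMI counts. Summed over all members, CPM were 19517, 19156, 22018 and 21719.7 in stem cells and 24704, 23063, 28474 and 29800.5 in cycling cells. They were 33056, 31186, 38234 and 38892 in immature enterocytes, whose lowest library stood above the highest of either crypt class. In enterocytes they were 20165, 23725, 23475 and 25961, overlapping stem and cycling cells. Levels across genes are not ranked here, since a 3' tag count is not scaled to transcript length.

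The secretory classes lay lower. Sums were 14748, 16394, 19217 and 21637 CPM in tuft cells, 14185, 14819, 15297 and 16956 in goblet cells and 11426, 11253, 12637 and 12817 in enteroendocrine cells. Tuft and goblet ranges overlapped, and the lowest goblet library stood above every enteroendocrine one. Paneth cells read 4505, 5459.7, 5448 and 4667 CPM. Defensin transcripts alone took 49.8 to 55.8% of their UMIs, which leaves a smaller share for every other gene. The part of defensins in the low Paneth sums was not tested.

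Enterocytes were made of 2 clusters that differed in level and depth. The Fabp1 cluster, led by a fatty acid binding protein of enterocytes, read 30697, 28419, 36381 and 37956 CPM over all members, with median UMIs of 30468, 10205, 13794 and 14868 per cell. The cluster led by Lct, the lactase gene, read 9660.0, 11780.5, 5934 and 7758 CPM with median UMIs of 3198, 1632, 2575 and 2810, and mitochondrial transcripts were a median 15.3 to 21.3% of its UMIs against 5.79 to 8.05% in the Fabp1 cluster. A cluster led by Nt5e and Ada, which act on nucleotides, read 6236, 8384, 4003 and 5326 CPM. One with Slc10a2 and Fabp6, the ileal bile acid transporter and binding protein, among its leading genes read 5355, 8383, 5109.5 and 8152 CPM. Neither of these clusters reached 3 markers, so both stay without a type. When clustering was centred within libraries, clusters with these leading genes were named as enterocytes. The one with Slc10a2 and Fabp6 then held 1287 cells, and the one with Nt5e and Ada 2196. Fabp6 was also a leading gene in immature enterocytes. Median UMIs per cell were 1836 to 3781 in the Slc10a2 and Fabp6 cluster and 1866 to 3090 in the Nt5e and Ada cluster. The first held 313, 348, 114 and 393 cells and the second 95, 84, 427 and 212. The part of depth and of mitochondrial share in the low sums of these 3 clusters was not tested.

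**Figure D1:**
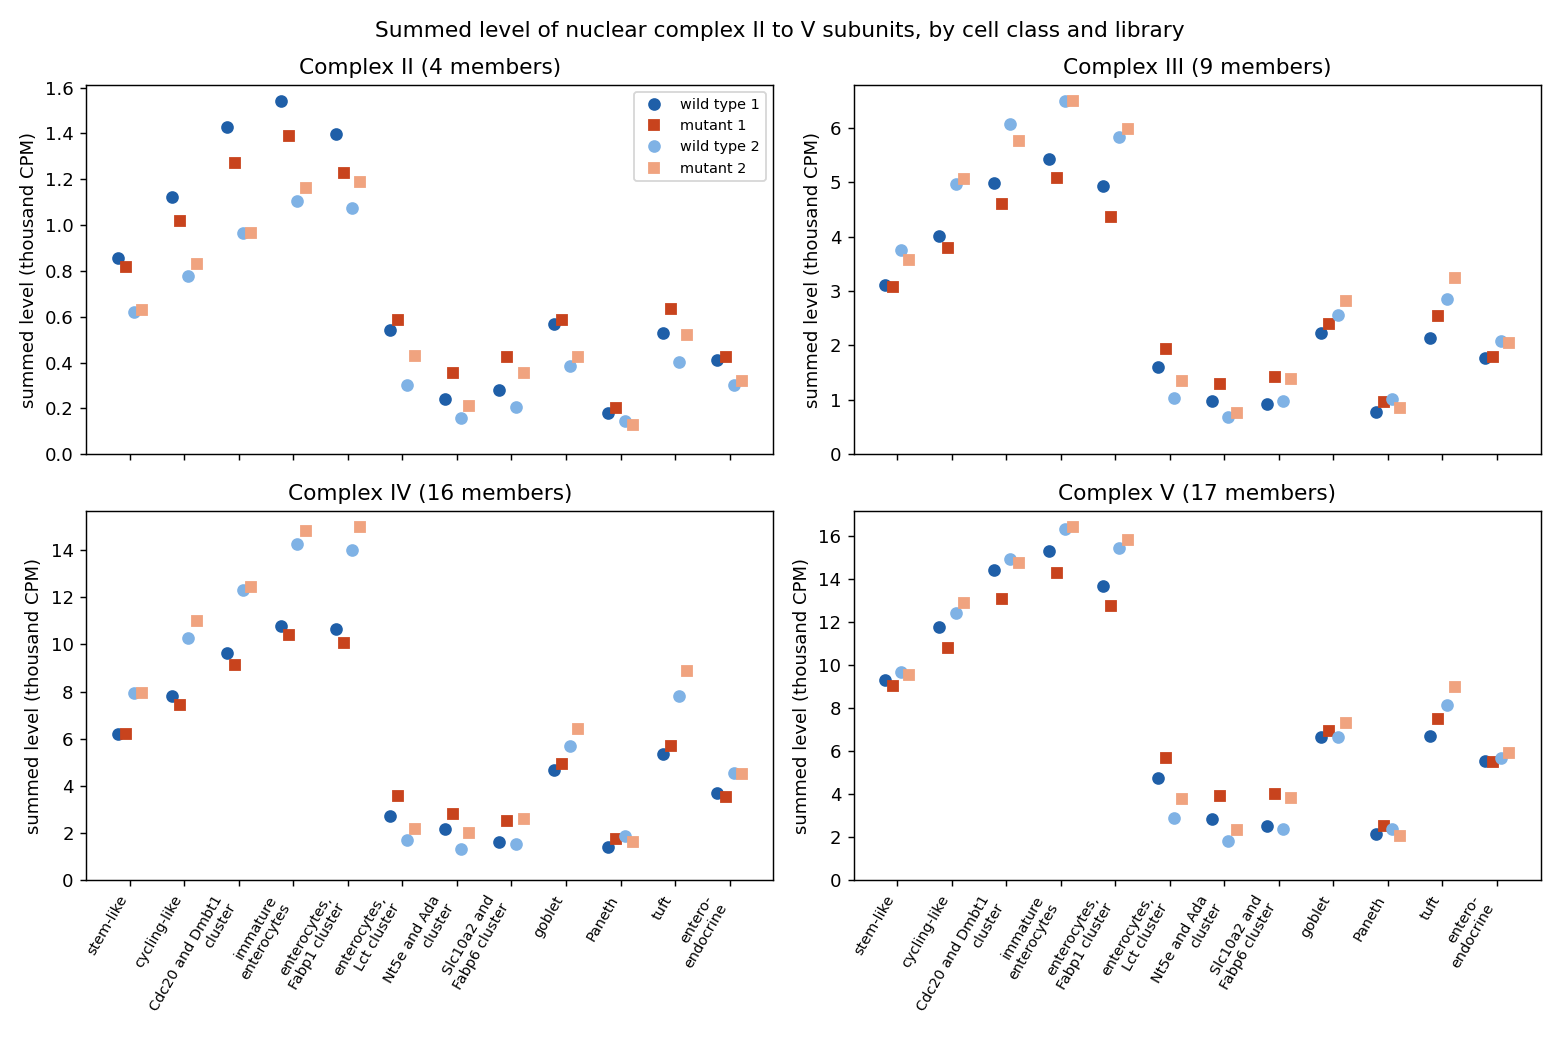
Summed level of the members of complexes II, III, IV and V (1 panel each; y axis, CPM, in units of 1000, linear from 0) in each cell class (x axis), with 1 point per library, circles for wild type and squares for mutant. In each panel every library's immature enterocytes lie above its own stem and cycling cells, and Paneth cells lie lowest of the named classes.

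From crypt cells to immature enterocytes nearly the whole set of subunits rose. With edgeR's quasi-likelihood test (Benjamini-Hochberg adjustment over all genes, library as a block), 42 of 43 members tested were higher and 1 lower. Of all genes 79.3% were called, 38.4% higher and 40.9% lower, so a call alone is common and the members' count is to be read against the shares by direction. Their median log2 difference was 0.81, beside -0.031 over all genes. The exception was Cox6b2, which fell. Complex II and III subunits moved with the rest: Sdhb, the iron-sulfur subunit of succinate dehydrogenase, rose (log2 1.03, SE 0.0371, adjusted p = 2.66e-11), as did Uqcrfs1, the Rieske iron-sulfur protein of complex III (log2 1.05, SE 0.0414, adjusted p = 6.44e-11). Cox5a, a structural subunit of complex IV, rose by 1.04 on the log2 scale. The smallest rises in these cells included Atp5g2 (0.21) and Cox7a2l (0.31), both of which fell in the enterocyte class below. This comparison was added after the data were seen.

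In enterocytes 29 of 42 members were higher and 4 lower than in crypt cells by the same test, with 80.8% of all genes called (36.9% higher, 43.8% lower). The median over members was 0.34 and over all genes -0.18. The count depends on which enterocytes are taken: the Fabp1 cluster alone had 39 members higher and 2 lower of 43 (median 0.92, all genes -0.23, 78.1% called), whereas the Lct cluster alone had 1 higher and 38 lower (median -1.35, all genes -0.36, 77.8% called, 44.6% lower). It also depends on scaling. With total UMIs in place of TMM, the trimmed-mean scaling that sets the bulk of genes equal, 6 were higher and 8 lower, with medians of -0.026 and -0.55.

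Cox7a1 changed most among the members named by the size rule. Its CPM were 5.14, 6.61, 10.3 and 9.97 in crypt cells and 92.9, 128, 175 and 151 in enterocytes (log2 4.47, SE 0.0991, adjusted p = 5.66e-13). All enterocyte libraries stood far above all crypt libraries. Sdhb read 267, 236, 235 and 236 CPM in crypt cells and 353, 355, 298 and 362 in enterocytes (log2 0.85, SE 0.0939, adjusted p = 1.44e-06), without overlap. In complex III, Uqcrfs1 rose by 0.62 and Uqcrb, a small subunit of the complex, by 0.59 on the log2 scale. Cox7a2, the widely expressed partner of Cox7a1, rose by 0.62.

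Complex V moved unevenly. Atp5o, the stalk subunit that confers oligomycin sensitivity, read 603, 499, 604 and 624 CPM in crypt cells and 698, 692, 712 and 795 in enterocytes (log2 0.68, SE 0.0959, adjusted p = 1.67e-05). Atp5md, a small membrane subunit, read 209, 219, 457 and 376 CPM in crypt cells and 269, 379.9, 586 and 521 in enterocytes (log2 0.86, SE 0.0980, adjusted p = 2.06e-06); here the groups overlapped, with set B above set A in both classes. Atp5d, the delta subunit of the rotor stalk, rose by 0.63. Against these, Atp5g2, a gene for the c subunit of the rotor ring, read 805, 698, 572 and 711 CPM in crypt cells and 269, 306, 199 and 245 in enterocytes (log2 -1.09, SE 0.0972, adjusted p = 1.56e-07). Cox7a2l read 438, 407, 372 and 416 CPM in crypt cells and 202, 221, 175 and 193 in enterocytes (log2 -0.68, SE 0.0897, adjusted p = 8.67e-06). For both, every enterocyte library lay below every crypt library.

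Of these 10, the 7 that rose other than Cox7a1 had negative values in the Lct cluster taken alone, at log2 -0.33 for Sdhb, -0.89 for Uqcrfs1, -1.59 for Uqcrb, -1.42 for Cox7a2, -0.98 for Atp5o, -1.21 for Atp5md and -0.31 for Atp5d. Cox7a1 stayed higher in both clusters, at 2.47 in the Lct cluster and 5.11 in the Fabp1 cluster.

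**Figure D2:**
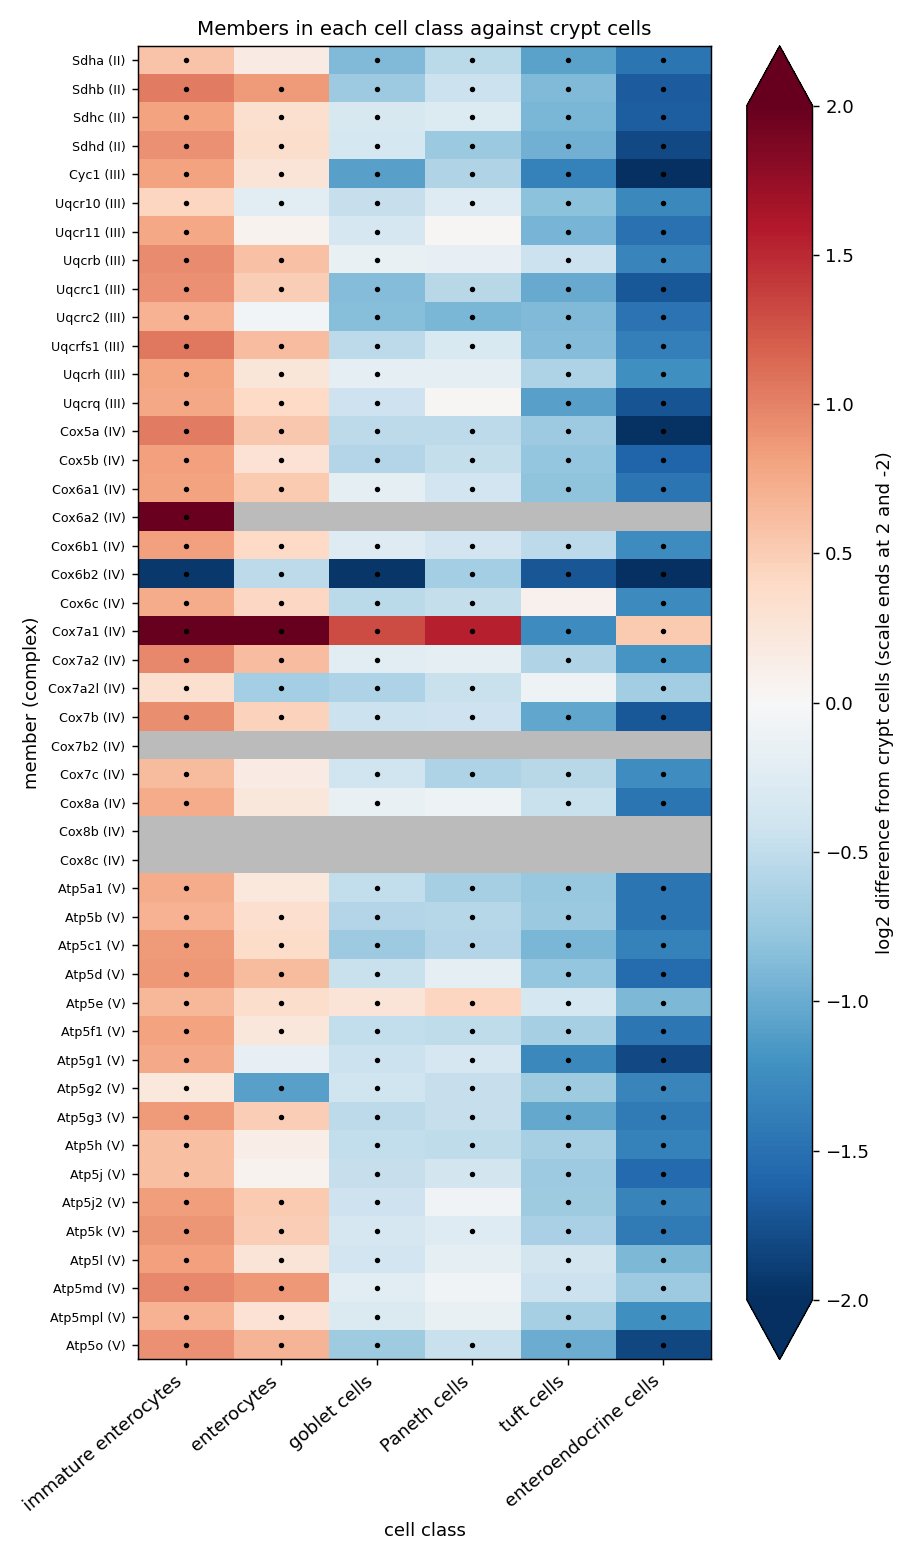
Log2 difference from crypt cells (colour) for each member (y axis) in each cell class (x axis), after TMM scaling; dots mark an adjusted p under 0.05 and grey cells were not tested. Immature enterocytes are higher for 42 of 43 members, and enteroendocrine cells are lower for 41 of 42.

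The secretory classes went the other way. In enteroendocrine cells 41 of 42 members were lower and 1 higher (66.9% of all genes called, 31.3% higher and 35.6% lower; median -1.45 over members and -0.081 over all genes). In tuft cells 40 of 42 were lower and 0 higher (42% called, 24.9% lower; median -0.77 and -0.10). In goblet cells 40 of 42 were lower and 2 higher (75.9% called, 38.4% lower; median -0.44 and -0.029). In Paneth cells 29 of 42 were lower and 2 higher (58.6% called, 29.9% lower; median -0.40 and -0.078). In each of the 4 contrasts the share of members lower exceeded the share of all genes lower. With stem cells alone as the reference, 21 members were lower and 5 higher in goblet cells, beside 5437 of 13882 genes lower (median -0.14 over members and -0.0264 over all genes). In Paneth cells 12 members were then lower and 7 higher, beside 4124 of 13473 genes lower (median -0.0652 and -0.0625), so with this reference the members' share lower in Paneth cells did not exceed that of all genes.

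In complex II, all 4 subunits were lower in enteroendocrine cells. Sdha, the flavoprotein that oxidises succinate, read 264, 212, 206 and 207 CPM in crypt cells, 109, 105, 98.0 and 98.0 in goblet cells and 128, 135, 114 and 125 in tuft cells. Both secretory classes lay below crypt cells in every library (log2 -0.88 in goblet cells, -1.07 in tuft cells). Sdhd, a membrane anchor of the complex, read 257, 267, 112 and 133 CPM in crypt cells and 92.3, 99.8, 44.9 and 52.8 in enteroendocrine cells (log2 -1.80, SE 0.0994, adjusted p = 6.6e-12). Set A stood above set B for Sdhd in both classes, yet every enteroendocrine library lay below every crypt library. Sdhb and the other anchor, Sdhc, each differed by -1.66 on the log2 scale in enteroendocrine cells.

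In complex III, Cyc1 led the falls. This gene encodes cytochrome c1, the heme protein that hands electrons to cytochrome c, and read 398, 301, 358 and 376 CPM in crypt cells. It read 128, 108, 101 and 134 in enteroendocrine cells (log2 -2.01, SE 0.103, adjusted p = 2.04e-12). It read 141, 178, 151 and 199.8 in tuft cells (log2 -1.34, SE 0.144, adjusted p = 6.83e-06) and 154, 147, 124 and 148 in goblet cells (log2 -1.08, SE 0.0714, adjusted p = 5.29e-08). None of these 3 classes overlapped crypt cells, while the CPM of enteroendocrine and goblet cells overlapped each other. The core subunits Uqcrc1 and Uqcrc2 fell in goblet cells by 0.87 and 0.85 on the log2 scale. Uqcrc1 fell by 1.01 in tuft cells and 1.70 in enteroendocrine cells. The small subunit Uqcrq fell by 1.09 and 1.73 in the same classes, and Uqcr11 fell by 0.93 in tuft cells.

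In complex IV, Cox5a was lower in enteroendocrine cells by a wide margin. It read 1293, 1444, 1472 and 1701 CPM in crypt cells and 462, 526, 469 and 522 in enteroendocrine cells (log2 -1.98, SE 0.110, adjusted p = 7.01e-12). Every enteroendocrine library stood below every crypt library. Cox7b, a small subunit, fell by 1.69 there and by 1.05 in tuft cells. In goblet cells the largest falls in this complex that the size rule names were those of Cox7a2l (-0.62) and Cox5b, a zinc-binding subunit (-0.58).

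In complex V, the c subunit gene Atp5g1 read 863, 742, 885 and 939 CPM in crypt cells, 386, 413, 384 and 482 in tuft cells and 375, 318, 268 and 346 in enteroendocrine cells. Both classes were below crypt cells in every library (log2 -1.29, SE 0.125, adjusted p = 2.72e-06 in tuft cells; log2 -1.80, SE 0.117, adjusted p = 6.93e-11 in enteroendocrine cells). Its relative Atp5g3 fell by 1.03 in tuft cells. Atp5o read 243, 209.9, 195 and 226 CPM in enteroendocrine cells, against the crypt values given above (log2 -1.82, SE 0.108, adjusted p = 2.02e-11). It fell by 0.99 in tuft cells and 0.71 in goblet cells, where Atp5c1, the central stalk subunit, fell by 0.73. Atp5e, the epsilon subunit of that stalk, was among the few that were higher, at log2 0.25 in goblet cells.

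In Paneth cells the falls were smaller after scaling and much larger without it. Uqcrc2 read 347, 285, 256 and 277 CPM in crypt cells and 55.5, 42.2, 36.3 and 31.4 in Paneth cells, and after TMM the difference was log2 -0.92, SE 0.0873, adjusted p = 5.91e-07. Sdhd (-0.74), Atp5a1 (-0.66), Cox7c (-0.62), Cyc1 (-0.60), Atp5c1 (-0.59), Atp5b (-0.57), Uqcrc1 (-0.55), Sdha (-0.53) and Cox5a (-0.52) followed on the log2 scale; Atp5a1 and Atp5b encode the catalytic head of ATP synthase. Cox7a1 (1.55) and Atp5e (0.42) were called higher after TMM, but with total UMIs 0 members were higher and 42 lower. That scaling moved the median of all genes to -2.0, beside -2.32 for the members.

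Isoform use shifted along the crypt to villus axis, and the shares below compare paralogs within a library. Cox7a1 made up 0.579 to 0.865% of Cox7a1 and Cox7a2 UMIs in stem cells, 1.12 to 1.58% in cycling cells and 5.78 to 8.33% in immature enterocytes. It reached 13.0 to 17.4% in the Fabp1 cluster and 14.7 to 16.6% in the Lct cluster, so both kinds of enterocyte carried it although their summed levels differed. Goblet cells (3.12 to 4.05%), Paneth cells (1.77 to 5.43%) and enteroendocrine cells (2.49 to 4.77%) lay between, and tuft cells had 0 to 1.77%. Goblet cells were called higher than crypt cells (log2 1.31, SE 0.0996, adjusted p = 1.89e-07) and tuft cells lower (log2 -1.25, SE 0.471, adjusted p = 0.0469). Enteroendocrine cells were called higher (log2 0.52, SE 0.213, adjusted p = 0.0389), a call lost without the low-count filter, under 15% mitochondrial UMIs, and without wild type 1, mutant 1 or wild type 2.

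Along the crypt to villus axis, Cox6b2 went opposite to Cox7a1 from stem cells to immature enterocytes and the Fabp1 cluster. Its share was higher again in the Lct cluster and highest in the Nt5e and Ada and the Slc10a2 and Fabp6 clusters. It made up 1.61 to 2.87% of Cox6b1 and Cox6b2 UMIs in stem cells and 0.148 to 0.299% in immature enterocytes. Its CPM were 7.37, 6.53, 16.3 and 14.7 in crypt cells and 1.33, 2.08, 3.67 and 2.84 in immature enterocytes (log2 -1.93, SE 0.127, adjusted p = 1.09e-08). All immature libraries lay below all crypt libraries. It was also lower in goblet (-1.94), tuft (-1.71) and enteroendocrine cells (-2.07). In goblet and enteroendocrine cells this was opposite to the call of Cox7a1. In the Nt5e and Ada cluster its share was 19.7 to 28.7%, and in the Slc10a2 and Fabp6 cluster 6.98 to 15.8%. The Fabp1 cluster had 0.196 to 0.754% and the Lct cluster 2.21 to 4.49%. Against crypt cells Cox6b2 was not called in the Lct cluster (log2 -0.18, edgeR adjusted p = 0.487). By library the share was 28.7, 20.5, 28.4 and 19.7% in the Nt5e and Ada cluster and 14.5, 8.52, 15.8 and 6.98% in the Slc10a2 and Fabp6 cluster, with both mutants below both wild types in each. Its own level there was 78.0, 75.6, 55.5 and 57.8 and 31.2, 25.1, 35.6 and 22.9 CPM, and that of Cox6b1 194, 294, 139.6 and 236 and 183, 269, 189.8 and 306 CPM, higher in both mutants in each cluster. These clusters were singled out after their values were seen, and the share was not tested between genotypes.

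Among the 3 genes for the c subunit, which encode the same mature protein, the shares of Atp5g2 and Atp5g3 shifted in opposite directions. Atp5g2 made up 30.7 to 38.4% of their UMIs in stem cells, 18.9 to 25.9% in immature enterocytes and 12.9 to 18.4% in enterocytes. Atp5g3 took 28.0 to 32.9% in stem cells and 44.2 to 51.1% in enterocytes. The stem and enterocyte ranges did not overlap for either gene, whereas those of Atp5g1 did (32.2 to 37.3% and 32.8 to 38.2%). Atp5g2 kept 28.9 to 34.7% in goblet cells and 32.3 to 46.2% in tuft cells. Cox7b2, Cox8b and Cox8c had 0 UMIs in all libraries, which allows up to 0.0309 to 0.0350 CPM per library, so Cox7b and Cox8a were the sole forms detected.

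**Figure D3:**
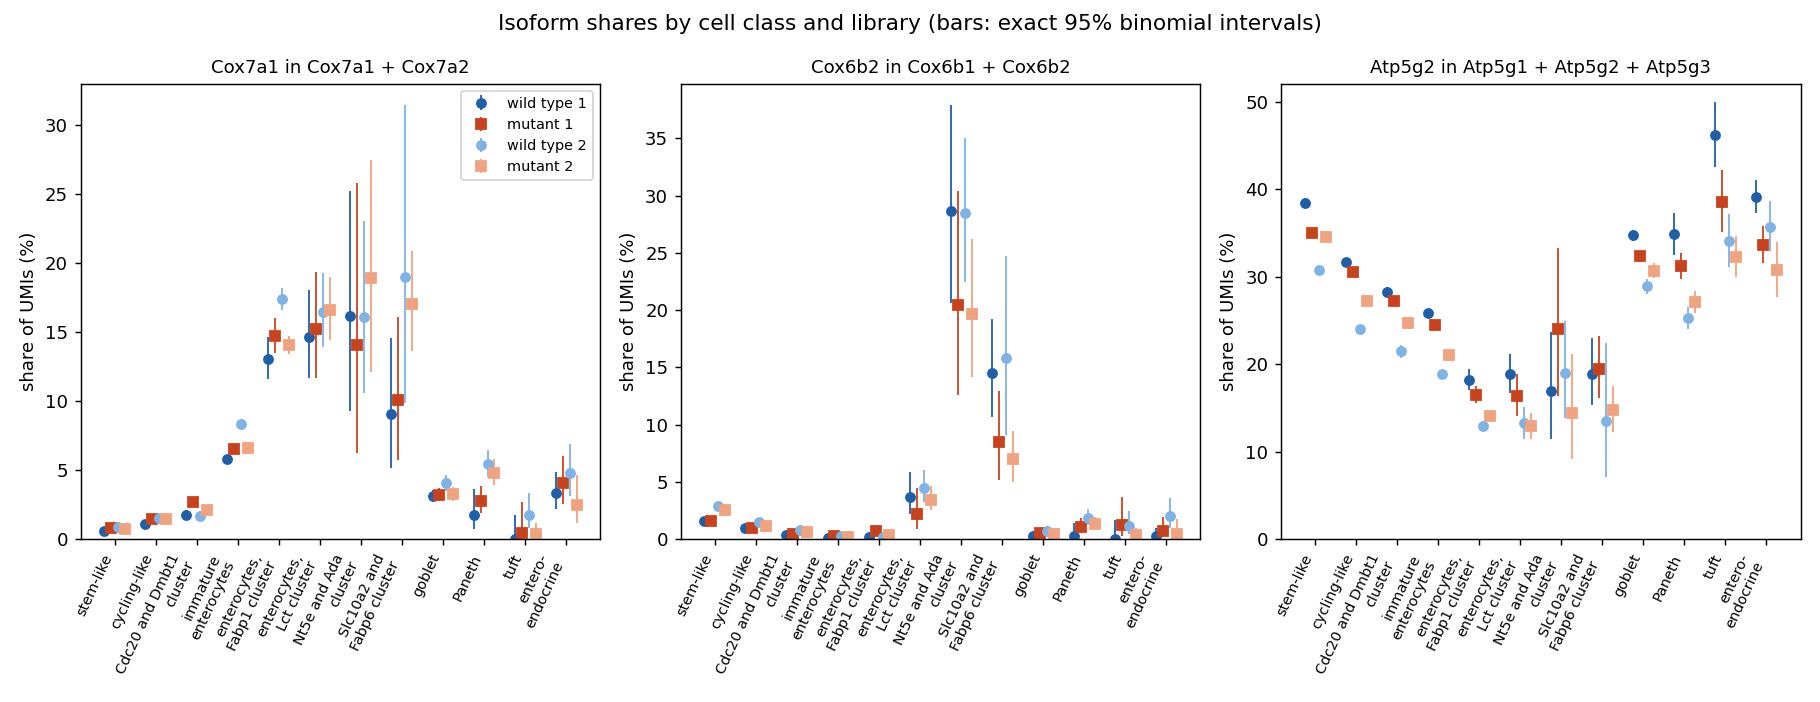
Share of Cox7a1, Cox6b2 and Atp5g2 among the UMIs of their paralogs (1 panel each; y axis, percent) by cell class (x axis), with 1 point per library and bars for exact 95% binomial intervals, which cover counting error only. Cox7a1 rises from under 1% in stem cells to 13.0 to 17.4% in the Fabp1 enterocyte cluster, and Cox6b2 peaks in the Nt5e and Ada cluster.

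Other genes of the pathway were counted by list in the same fits. Of all genes, 36.9% were higher and 43.8% lower in enterocytes, and 31.3% and 35.6% in enteroendocrine cells. These shares were 37.5% and 38.4% in goblet, 28.7% and 29.9% in Paneth and 17.1% and 24.9% in tuft cells. The list counts are to be read against them. Of the mtDNA-encoded subunits of complexes III to V, 6 higher and 0 lower of 6 were called in enterocytes (median log2 1.72) and 0 higher and 6 lower of 6 in enteroendocrine cells (median -0.87). The enterocyte median is not split by cluster here. Mitochondrial genes took 15.7 to 19.5% of UMIs in the Lct cluster and 7.33 to 8.97% in the Fabp1 cluster. They took 4.17 to 5.78% in crypt cells. Of nuclear complex I subunits, 14 higher and 6 lower of 36 were called in enterocytes (median 0.079), 2 higher and 29 lower of 36 in goblet cells, 2 higher and 21 lower of 36 in Paneth cells, 0 higher and 27 lower of 36 in tuft cells and 0 higher and 36 lower of 36 in enteroendocrine cells. Of assembly factors of complexes II to V, 14 higher and 19 lower of 36 were called in enterocytes (median -0.41) and 0 higher and 32 lower of 36 in enteroendocrine cells. With total UMIs in place of TMM the median of all genes in enterocytes moved as given above. Among regulators, 3 higher and 5 lower of 10 were called in enterocytes: Ppargc1a, a coactivator of mitochondrial genes, rose by 4.03 on the log2 scale, while Myc and Tfam, a growth regulator and the packaging factor of mtDNA, fell by 4.49 and 2.49. Cycs, the cytochrome c gene, rose by 1.34.

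Between genotypes no member passed the test in any class. In all epithelial cells edgeR called 0 of 43 members and 0 of 16629 genes (0% called), with 1 member and 112 genes at an unadjusted p under 0.05; DESeq2 called 8 genes and 0 members. The same test called 0 members in crypt cells, enterocytes, Paneth, goblet, tuft and enteroendocrine cells, where 0% of all genes were called; members at an unadjusted p under 0.05 numbered 1, 0, 0, 0, 0 and 0 in that order, and DESeq2 called 0, 0, 0, 0, 0 and 0. The fit has 2 residual degrees of freedom, and a missed threshold does not show that the genotypes are alike. The genotype effect in enterocytes minus that in crypt cells was called for 0 members and 0 genes by edgeR, with 0 members and 290 genes at an unadjusted p under 0.05, and for 0 members by DESeq2.

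Summed levels differed little. Complex II read 1004, 949, 665 and 716 CPM in all epithelial cells and complex III read 3614, 3542, 4025 and 4072. Complex IV read 7191, 7137, 8621 and 9112 and complex V 10503, 10134, 10224 and 10515. In each complex the genotypes overlapped, and the exact two-sided permutation test over libraries gave p = 1.00 for each of the 4; with 2 libraries against 2 it cannot go below 0.33. In enterocytes the sum over complexes was higher in the mutant of both sets, by 0.23 in set A and 0.15 in set B on the log2 scale (exact p = 0.33). The 2 enterocyte clusters, whose levels differ, were mixed in different numbers: the Fabp1 cluster had 62, 247, 388 and 456 cells and the Lct cluster 440, 453, 1448 and 1416. Within the Lct cluster the sum was again higher in the mutant of both sets (0.29 and 0.39), and within the Fabp1 cluster it was lower in set A and higher in set B (-0.11 and 0.0612). The part of the mix in the enterocyte sum was not tested. In such sums fewer cells of a type and less RNA per cell cannot be told apart.

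Single members leaned towards the mutants without passing the test. In all epithelial cells 23 of 43 were higher in the mutant of both sets and 0 lower, beside 24.3% and 26.0% of all genes. The median log2 difference was 0.11 over members and -0.00562 over all genes, with 38 members positive and 5 negative. With total UMIs in place of TMM the split was 21 positive and 22 negative and the median of all genes -0.12, so the lean is relative to the bulk of genes. Malat1 read 4453, 2721, 6131 and 5539 CPM in these cells, lower in the mutant of both sets, and defensin genes 22621, 39960.4, 70603 and 86799.8, higher in both; their part in the lean was not tested. The median also rests on single libraries: it was 0.029 without wild type 1 and -0.080 without mutant 2, against 0.33 without mutant 1 and 0.30 without wild type 2.

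Among members with a mean of at least 50 CPM, Cox5a had the largest difference shared by both sets. After TMM scaling its CPM were 1254, 1502, 1451 and 1869.6, both mutants above both wild types (log2 0.32, SE 0.222, edgeR adjusted p = 1.00). Atp5g3, a c subunit gene, read 624, 740.4, 686 and 790.0 and did not overlap either (log2 0.23). Uqcrq read 431, 520.2, 673 and 774 and Cox6c 623, 691, 914 and 1048; in both the 2 sets were further apart than the genotypes. The same held for Atp5l (647, 733, 841 and 979) and Atp5j2 (418, 536, 693 and 767), small membrane subunits of ATP synthase. The complex II anchors ran against the set order: Sdhc read 199.8, 226, 151 and 183 and Sdhd 243, 262, 110.1 and 139, with set A above set B. Both mutants stood above both wild types for 7 of 43 members, beside 8.93% of all genes.

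**Figure D4:**
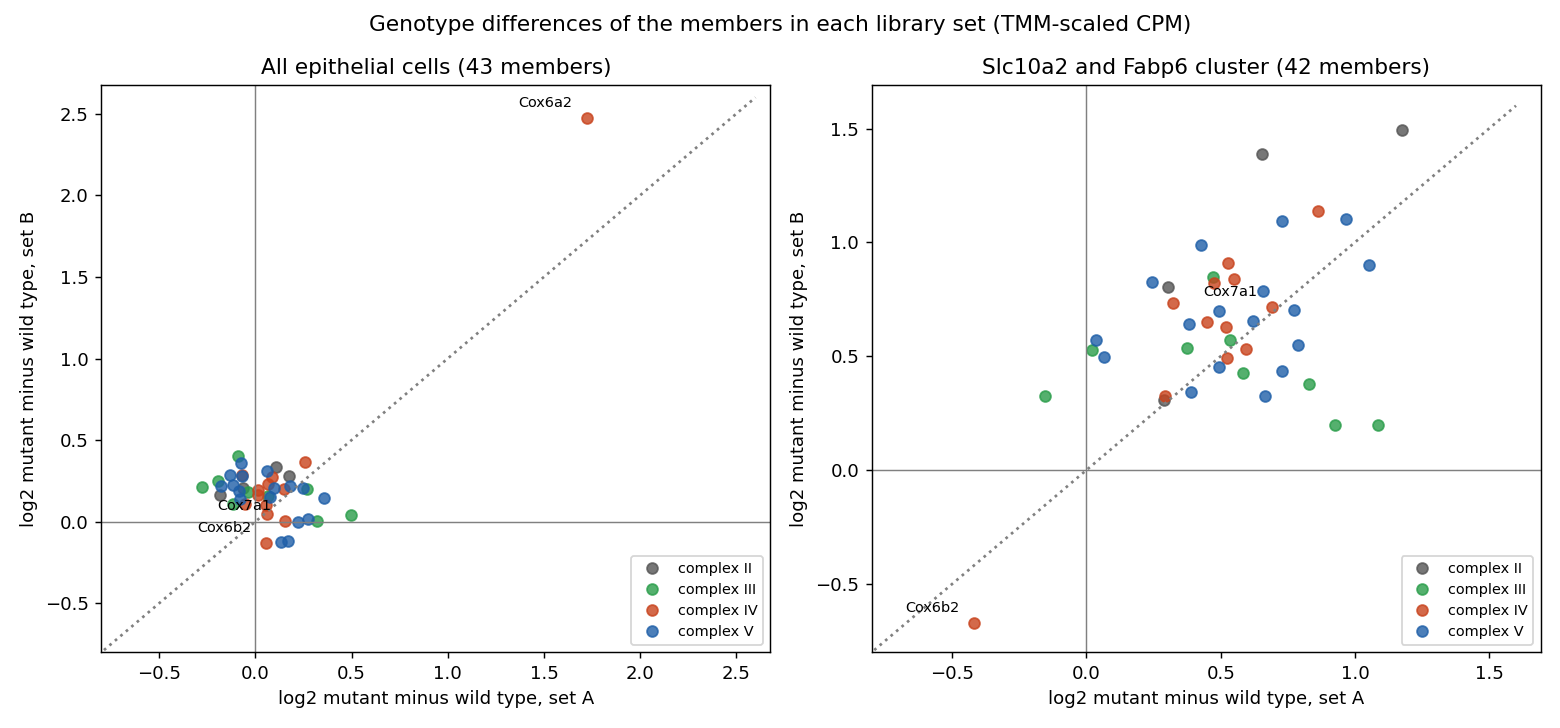
Log2 mutant minus wild type of TMM-scaled CPM in set A (x axis) and set B (y axis), with 1 point per member coloured by complex, in all epithelial cells (left) and in the Slc10a2 and Fabp6 cluster (right); the dotted line marks equal values. On the left 23 of 43 points have both values above 0 and 0 have both below, with Cox6a2 far from the rest; on the right 40 of 42 have both above 0 and Cox6b2 has both below.

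The lean varied by class. Members higher in both sets were 29 of 42 in enterocytes and 29 of 40 in tuft cells, with 0 lower in each, beside 29.3% and 26.6% of all genes higher. In enteroendocrine cells 8 were higher and 8 lower of 41, and in immature enterocytes 9 and 1 of 43. Of all genes 25.0% were higher and 26.7% lower in enteroendocrine cells, and 23.6% and 25.3% in immature enterocytes, so in neither class was the members' share higher above that of all genes. Taken alone, the Lct cluster had 33 of 42 higher and 0 lower, and the Fabp1 cluster 7 higher and 2 lower, beside 27.1% and 22.0% of all genes higher. Transcripts outside the member set shifted too. Ribosomal protein genes differed in enterocytes by 0.42 in set A and 0.22 in set B on the log2 scale. Complex I subunits differed there by 0.23 and 0.13, and Malat1 by -0.98 and -0.095. Ribosomal protein genes differed by 0.57 and 0.39 in the Lct cluster, and by 0.064 and -0.017 in tuft cells. Tuft cells did shift in the other measures, with complex I subunits at 0.194 and 0.192 and Malat1 at -0.427 and -0.197. The part of these shifts in the lean was not tested.

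The Slc10a2 and Fabp6 cluster showed a wider gap than the named classes (median log2 0.57 over members and -0.00207 over all genes). It held 313, 348, 114 and 393 cells, with 421565 to 1699663 UMIs per library. Its summed member CPM were 5355, 8383, 5109.5 and 8152, higher in the mutant by 0.65 in set A and 0.67 in set B on the log2 scale (exact p = 0.33). Both mutants stood above both wild types for 34 of 42 members, beside 18.6% of all genes. Atp5g3 read 146, 303, 144 and 268 CPM after TMM (log2 0.97, SE 0.249, edgeR adjusted p = 0.886). Cox5a read 234, 427, 195 and 429 (log2 0.99, SE 0.257, adjusted p = 0.886). Neither overlapped, yet edgeR called 0 of 7330 genes (0% called), with 15 of 42 members and 401 genes at an unadjusted p under 0.05; with the set as a block it called 0 (25 members and 694 genes unadjusted), and DESeq2 called 0. The cluster was chosen after its values were seen.

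Other transcripts moved with the members in that cluster. Ribosomal protein genes read 18518, 44042, 13369 and 21287 CPM, complex I subunits 2015, 3134, 1817 and 2908, and defensin genes, which mark Paneth cells, 3935, 10429, 7614 and 9937. Malat1, a nuclear RNA, read 35911, 22067, 34296 and 28712. Mutants were higher in both sets for the first 3 and lower for Malat1; the part of these shifts in the members' gap was not tested. In the Nt5e and Ada cluster 33 of 42 members were higher in both sets, beside 28.5% of all genes, and ribosomal protein genes read 21447, 40282, 10759 and 13040.2 CPM.

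Cox6a2, the heart and muscle form of Cox6a, was rare and stood higher in both mutants. The gene lies at chr7:128205435-128206387, minus strand (mm10) and overlaps Itgad on the other strand. It had 13, 48, 13 and 73 UMIs in all epithelial cells, or 0.152, 0.494, 0.151 and 0.812 CPM. Both mutants lay above both wild types. Without a term for the set the edgeR fit across all genes gave log2 2.23 (SE 0.495, adjusted p = 1.00), and leaving out each library in turn gave 1.72 to 2.61. With the set as a block it was the one member called (log2 2.18, SE 0.378, adjusted p = 0.0206), among 29 genes (0.174% called). DESeq2 with the same block gave an adjusted p of 0.679, and the other alternatives gave 1.00. In crypt cells the block gave an adjusted p of 0.0847 (0.858% of genes called), and with it 0 members were called in enterocytes (0.0091% of genes called), enteroendocrine cells (0.0376%), Paneth cells (0.102%), tuft cells (0.421%) and goblet cells (0%). The labels do not pair the libraries, so the block rests on the sets alone.

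Counting error alone leaves a wide range for the size. The ratio of mutant to wild type was 4.27 (95% interval 2.78 to 6.79) over both sets, 3.26 (95% interval 1.74 to 6.55) in set A and 5.36 (95% interval 2.95 to 10.5) in set B; these exact intervals cover counting error only. Most UMIs lay in 3 groups of cells: cycling cells held 2, 14, 3 and 12, immature enterocytes 7, 11, 5 and 36 and the Cdc20 and Dmbt1 cluster, which has no type, 2, 19, 1 and 11. Immature enterocytes were called higher than crypt cells (log2 1.98, SE 0.360, adjusted p = 0.000221). The UMIs lay in 13, 44, 13 and 64 cells, 13, 41, 13 and 57 of them with exactly 1. In crypt cells the ratio was 4.56 (95% interval 1.86 to 13.4) over both sets, 4.05 (95% interval 1.14 to 21.8) in set A and 5.18 (95% interval 1.45 to 28.1) in set B. In immature enterocytes it was 3.82 (95% interval 2.00 to 7.91) over both sets, 1.70 (95% interval 0.603 to 5.18) in set A, where the interval includes 1, and 6.18 (95% interval 2.42 to 20.2) in set B.

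Acta1, skeletal muscle actin, also stood highest in mutant 2. It had 304, 585, 808 and 2860 UMIs in all epithelial cells, while the muscle genes Myl1 (0, 1, 1 and 1), Ckm (1, 2, 5 and 3) and Des (1, 1, 0 and 0) were at or near 0. Acta1 and Cox6a2 were spread differently: the Slc10a2 and Fabp6 cluster held 24.6% of Acta1 UMIs and 1.36% of Cox6a2 UMIs, the Fabp1 cluster 27.2% and 7.48%, and the Cdc20 and Dmbt1 cluster 1.51% and 22.4%. Beyond these values, the part of muscle RNA in the Cox6a2 difference was not tested, nor was that of reads from Itgad.

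The mutation lies in a gene that mitochondria need to translate mtDNA-encoded subunits, so nuclear transcripts of each complex were set against its mtDNA-encoded ones. For complex III, whose one mtDNA gene is mt-Cytb, the ratio of summed UMIs was 0.754, 0.584, 0.807 and 0.651, lower in the mutant of both sets and without overlap. For complex IV it was 0.329, 0.296, 0.325 and 0.388 and for complex V 0.930, 0.713, 1.01 and 1.21, where the sets went opposite ways. On the log2 scale the complex III ratio differed by -0.37 in set A and -0.31 in set B (exact permutation p = 0.33, the smallest that 4 libraries allow).

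In all epithelial cells the complex III ratio moved with its denominator. Summed nuclear complex III read 3614, 3542, 4025 and 4072 CPM, with the genotypes overlapping, whereas mt-Cytb read 4792, 6061, 4984 and 6259, higher in both mutants. The ratio was lower in the mutant of both sets in crypt cells (log2 -0.33 and -0.39), immature enterocytes (-0.45 and -0.30), goblet cells (-0.45 and -0.25) and enteroendocrine cells (-0.53 and -0.35). In enterocytes the sets differed in sign (0.10 and -0.18). Cells with 30% or more mitochondrial UMIs were left out, a filter that acts on the denominator; without it the complex III ratio was again lower in both sets (-0.23 and -0.32).

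**Figure D5:**
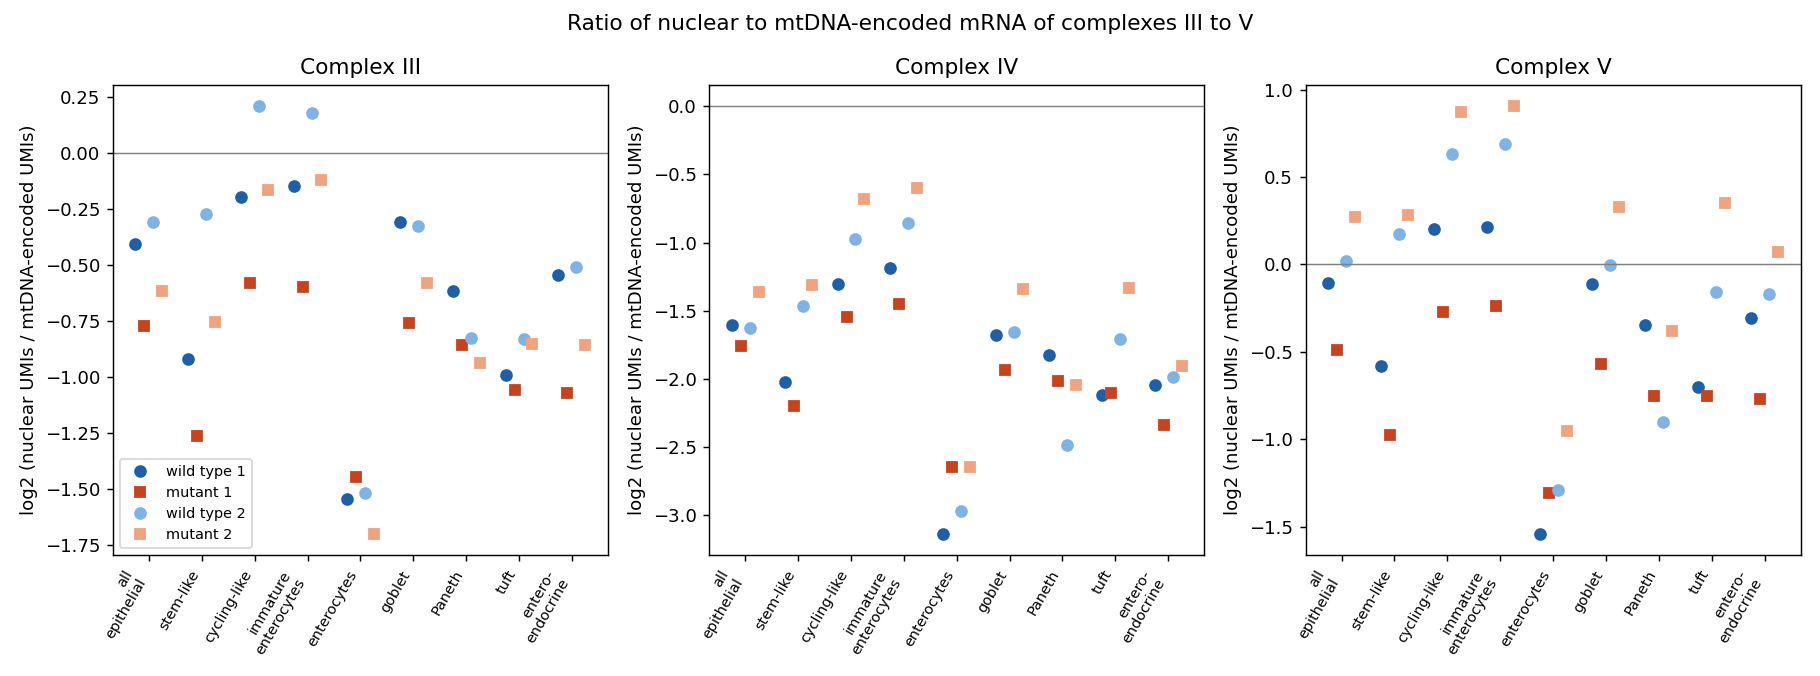
Log2 ratio of nuclear to mtDNA-encoded UMIs (y axis) for complexes III, IV and V (1 panel each) in all epithelial cells and each cell class (x axis), with 1 point per library, circles for wild type and squares for mutant. The complex III ratio is lower in both mutants in all epithelial cells, while complexes IV and V fall in set A and rise in set B.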

How the data were processed

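The files hold UMI counts per gene and barcode as deposited, not normalised, from 3' libraries of chemistry v3.1 per the labels' protocols. Per the file headers, set A came from Cell Ranger 7.0.0 and set B from 7.1.0; the submitters' processing notes name mm10. Intron counting and cell-calling options: not given in the sources used here. A 3' tag count does not scale with transcript length. Of the members, 12 overlap a gene on the other strand.

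A barcode was kept if it had 500 or more genes, 1000 or more UMIs and mitochondrial UMIs below 30%, and scrublet doublets were removed at 0.8% of barcodes per 1000. Cells were clustered in scanpy 1.11.5 (2000 variable genes without respiratory chain genes, 50 components, 15 neighbours, Leiden resolution 1, igraph 0.11.9). A cluster was named where at least 3 fixed markers of a type, more than of any other type, were among its 50 leading genes. The name was withheld where another type had more markers among the topmost genes. It was also withheld where a cluster of low UMI counts had no marker of the type there. The lymphocyte cluster was left out.

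UMIs were summed per library and class, and classes with at least 20 cells in each library were tested with edgeR 4.0.16 in R 4.3.3 (quasi-likelihood test, TMM, filterByExpr, Benjamini-Hochberg over all genes, threshold 0.05). Cell types were compared with library as a block, and genotypes without a term for the set. The scripts were tested on simulated data. Alternatives were DESeq2 1.42.0, other scaling, filters, clusterings, doublet and mitochondrial limits, the set as a block, and leaving out each library; those on single clusters, centred clustering and immature enterocytes were added after seeing the data. Replicate numbers were given here and pair nothing.

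Members and lists were chosen with earlier results of these data known. Values are given per library for the 10 members with the largest called difference in a cell type contrast (mean at least 10 CPM), for members with a restricted paralog, and, with no genotype call, for the 8 with the largest difference shared by both sets (mean at least 50 CPM). The lists were complex IV subunits outside the rule, carrier and inhibitor genes, mtDNA-encoded subunits, assembly factors, complex I subunits and regulators. Gene positions came from GENCODE vM21, which placed all 46 members, and promoter letters from RefSeq.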

Additional observations from a re-analysis of the deposited data

Results flagged for a closer look

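The ratio of nuclear to mtDNA-encoded UMIs went opposite ways in the 2 sets for complexes IV and V in all epithelial cells. For complex IV the log2 difference of mutant minus wild type was -0.15 for set A and 0.26 for set B. For complex V it was -0.38 for set A and 0.25 for set B. With 1 library of each genotype per set, the difference between the sets was not tested.

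Cells named as lymphocytes, which no comparison here uses, held 6 Cox6a2 UMIs in mutant 2 and 0 in each of the other libraries.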

How the results depend on the processing

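Across all alternatives, 262 summary values and 506 values of single members kept their direction and side of the threshold, or moved by less than the limit for a count or a spread. Of the other summary values 22 moved and 19 reversed, and of the other single members' values 18 reversed, 3 no longer passed and 1 newly passed. The kept summary values include genotype counts of called members that were 0 in the main fit and stayed 0. In those main fits 0% of all genes were called, so such values say little about stability. With total UMIs in place of TMM, members higher and lower were 6 and 8 in enterocytes, members higher were 0 in Paneth cells, 1 in goblet cells and 1 in tuft cells. With stem cells alone as the reference, 7 were higher and 12 lower in Paneth cells, no larger a share lower than the 4124 of 13473 genes, and 5 higher and 21 lower in goblet cells. The Lct cluster alone had 1 higher and 38 lower and the Fabp1 cluster alone 2 lower; immature enterocytes had 1 lower, and centred clustering left 2 lower in enterocytes. In enteroendocrine cells 0 were higher without the low-count filter and 0 under 15% mitochondrial UMIs. The Lct cluster alone reversed Atp5md (-1.21), Sdhb (-0.33), Atp5o (-0.98), Atp5d (-0.31), Uqcrfs1 (-0.89), Cox7a2 (-1.42) and Uqcrb (-1.59), and immature enterocytes reversed Atp5g2 (0.21) and Cox7a2l (0.31). The cause was not tested.

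With the set as a replicate block, 1 member (Cox6a2) was called between genotypes in all epithelial cells and 0 in the other classes. The labels do not pair the libraries.

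Summed levels by genotype turned sign under TMM scaling (log2 0.11 for complexes II, III and V) and without a mitochondrial limit (0.00506 for complex II, 0.00537 for III, 0.00449 for V), where the ratio for complex V was 0.011. Leaving out each library gave sums of -0.27 to 0.32 for complex II, -0.11 to 0.093 for III, -0.15 to 0.20 for IV, -0.032 to 0.021 for V and -0.075 to 0.091 for all, and ratios of -0.42 to -0.26 for III, -0.14 to 0.25 for IV and -0.45 to 0.32 for V. It gave 21 to 28 members higher and 2 to 4 lower in enterocytes, 25 to 29 lower in Paneth cells, 38 to 40 lower in goblet cells, 34 to 36 lower in tuft cells and 0 to 1 higher in enteroendocrine cells. It turned the genotype difference of 5 named members: Uqcrq ranged from -0.080 to 0.60, Atp5l from -0.015 to 0.42, Cox6c from -0.15 to 0.50 and Atp5j2 from -0.086 to 0.66, negative without mutant 2 and, for all but Atp5l, without wild type 1; Sdhd ranged from -0.35 to 0.87, negative without mutant 1 and without wild type 2. With 4 libraries, permutation tests cannot go below p = 0.33, and depth limits Cox6a2, Cox6b2 and Cox7a1 in small classes.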

Other observations

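The 2 sets differed more than the genotypes in many members. In all epithelial cells both libraries of set B stood above both of set A for 23 of 43 members and below for 6, beside 29.7% and 32.2% of all genes. Small subunits were among those higher in set B: Atp5md by 1.02 and Atp5k, another small membrane subunit of ATP synthase, by 1.00 on the log2 scale. The restricted isoforms Cox6b2 (1.18) and Cox7a1 (1.17) were higher in set B too. Sdhd, the complex II anchor, was lower (-1.02). Across the 43 members, which share libraries and depth, Spearman's rho between the length of the longest coding transcript and the set difference was -0.62, given as a description. The direction was not shared by all classes. In the Lct cluster both set B libraries stood above both of set A for 1 of 42 members and below for 32. In the Nt5e and Ada cluster these were 0 and 31 of 42. Of all genes 27.3% and 27.2% did so in the first, and 26.6% and 26.9% in the second. In crypt cells 27 of 43 members stood above and 4 below, beside 28.2% and 31.2% of all genes. The sex statement in the titles and the Cell Ranger version differ between the sets and cannot be told apart.

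The genes for the c subunit also followed the sets. The Atp5g2 share of c subunit UMIs was 38.4, 35.0, 30.7 and 34.5% in stem cells and 34.7, 32.3, 28.9 and 30.7% in goblet cells, lower in set B than in set A in both classes.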
